A study of Homo sapiens with 60 samples.

Results

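The comparison set HepG2 cells treated for 24 h with 500 µg/mL of a water extract of Paeoniae Radix, the dried root of peony, against the same cells treated with 20 µg/mL of it. It used 6 of 60 libraries, 3 at each dose, chosen by the treatment and dose in the sample labels and by no measured value. A further 3 libraries at 100 µg/mL served only to check the order over dose. HepG2 is a human hepatocellular carcinoma line that still makes many plasma proteins. The study treated these cells with water extracts of 6 herbs, each at 20, 100 and 500 µg/mL, with wortmannin at 10 µM, an inhibitor of phosphoinositide 3-kinases, and with 0.1% DMSO as vehicle, in 3 libraries each. The design implies a dose comparison within the peony extract, and no vehicle library entered it. Where vehicle values are given below they are background, because their codes in the sample descriptions begin differently from those of the peony libraries. The labels do not explain this leading number, and every title names the same batch, so whether it marks a separate set of cultures is not known. The series' design text gives a higher DMSO share than the labels do. Angelicae Gigantis Radix (angelica) is the other extract whose codes begin with the same number as the peony ones, and it is used for comparison with the same doses.

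Several pathways of liver cells recur in what follows. Bone morphogenetic proteins (BMPs) bind receptors that phosphorylate SMAD proteins, and in hepatocytes these switch on HAMP, which encodes the iron hormone hepcidin, along with the ID genes and their own inhibitors SMAD6 and SMAD7. Metallothioneins are small cysteine-rich proteins that bind zinc and copper, and the metal-sensing factor MTF1 drives their genes. ATF4 is the transcription factor of the amino acid and integrated stress responses, which raises genes for amino acid synthesis and import, while the aryl hydrocarbon receptor senses many plant compounds and raises CYP1A1.

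Library totals ran from 22.7 M to 30.7 M expected counts in the 9 peony libraries, so that 3 counts correspond to 0.0976 to 0.132 CPM, the count of a gene scaled to a common library size per M counts. Of the marker lists, all 24 hepatocyte markers had counts, with sums of 76230 to 77550 CPM at 500 µg/mL and 77970 to 78590 CPM at 20 µg/mL. The 14 blood cell markers summed to 1818 to 1931 CPM at 500 µg/mL and 1686 to 1882 CPM at 20 µg/mL, of which LYZ averaged 1777 CPM at 500 µg/mL and 1746 CPM at 20 µg/mL, with PTPRC, CD3E, MS4A1 and HBB at 0 in every peony library. Stellate cell and fibroblast markers summed to 79.1 to 85.4 CPM at 500 µg/mL and 80.8 to 83.4 CPM at 20 µg/mL, with DCN at 0. Markers of lung and breast epithelium stayed under 1 CPM in sum at both doses, with NKX2-1, KRT5 and KRT14 at 0. In bulk RNA, fewer cells of a kind and less RNA per cell cannot be told apart.

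1 library stood apart. Replicate 2 at 20 µg/mL differed from replicates 1 and 3 of its group by a chi-square per degree of freedom of 10.6 and 14.1, against 5.08 between those 2 replicates and 2.76 to 4.32 within the other peony groups. In that library, genes with a longest transcript under 1 kb (302 genes) stood 0.22 higher at the median on the log2 scale than in the other 2 libraries of its group. Genes with one over 8 kb (921 genes) stood 0.15 lower (-0.15). The count of genes in each comparison below is therefore also given without it, as are the counts of several gene lists. Whether replicates were separate cultures is not stated in the labels, so p-values measure a spread between libraries that may be technical. That spread was estimated within groups over all 60 libraries of the series, not over the peony libraries alone.

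Of 16093 genes tested, 561 (3.49%) passed the test between 500 and 20 µg/mL at an adjusted p under 0.05, 287 of them higher (1.78%) and 274 lower (1.7%). Most differences were small: the median size among the 561 was 0.24 on the log2 scale, and 47 genes differed by 1.5-fold or more, 23 higher and 24 lower. A difference of 2-fold or more was seen for 22 genes, 7 higher and 15 lower, and 9 of those 15 were metallothionein genes or BMP targets. The test was edgeR's quasi-likelihood F test with Benjamini-Hochberg adjustment over all genes tested, which gives every adjusted p below. With the 9 peony libraries fitted alone 377 genes passed, 325 of them shared with the 561. The count was 319 without replicate 2 at 20 µg/mL, 170 higher and 149 lower, and 338, 353 and 343 without replicate 1, 2 or 3 at 500 µg/mL. The plot of called members shows how the 561 genes fell over the gene lists.

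**Figure D1:**
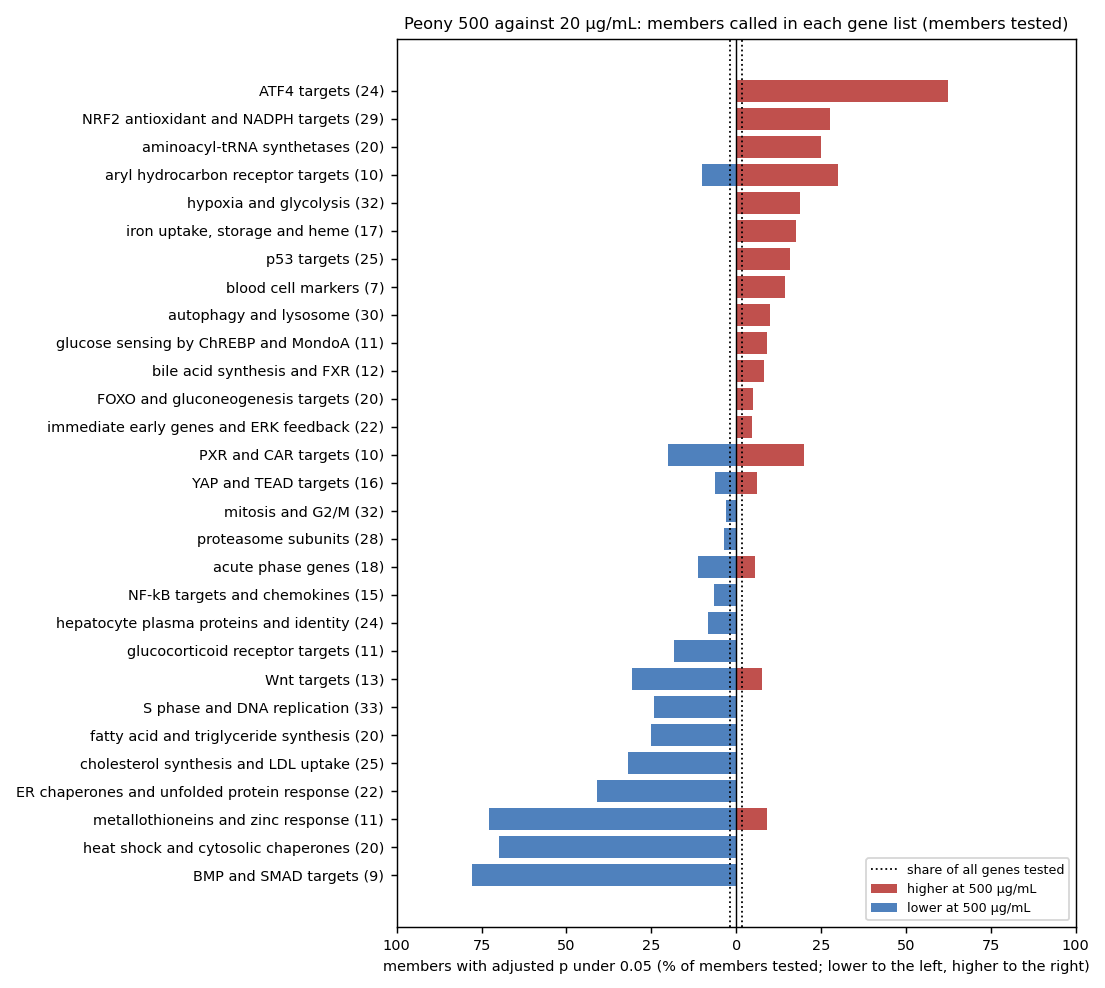
Share of the tested members of each gene list that passed the test between peony 500 and 20 µg/mL, with members higher at 500 µg/mL drawn to the right, members lower drawn to the left, and the number tested in brackets. Dotted lines mark the shares of all genes tested, 1.78% higher and 1.7% lower; BMP targets, chaperones and metallothioneins extend farthest to the left, and ATF4 targets farthest to the right.

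Most BMP and SMAD targets tested fell. Of 9 tested members, 7 were lower at 500 µg/mL, none was higher, and the median log2 difference was -0.77, where the median of all genes tested was near 0 (-0.0009). HAMP (chromosome 19, 35280716 to 35285143, build GRCh38) was the most reduced member. It had 0.225, 0.500 and 0.353 CPM at 500 µg/mL, from 7, 13 and 9 counts, against 4.94, 4.33 and 5.29 CPM at 20 µg/mL, from 136, 118 and 120 counts. The groups did not overlap, and HAMP was 13.6-fold lower at 500 µg/mL (log2 difference -3.77, SE 0.259, adjusted p = 1.21e-15). At 100 µg/mL it stood in between, at 1.66 ± 0.238 CPM (SD, n = 3), and vehicle libraries had 7.06 ± 0.168 CPM (SD, n = 3).

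The ID genes encode inhibitors of basic helix-loop-helix transcription factors and are read widely as early BMP targets. ID3 (chromosome 1, 23557918 to 23559794) had 4.04, 4.27 and 3.61 CPM at 500 µg/mL, against 16.04, 19.1 and 17.4 CPM at 20 µg/mL. This was a 4.40-fold lower level (log2 difference -2.14, SE 0.0980, adjusted p = 2.08e-22), the smallest p of all genes in the comparison. ID1 (chromosome 20, 31605283 to 31606515) had 49.0, 54.9 and 52.95 CPM at 500 µg/mL, against 133, 157 and 145 CPM at 20 µg/mL, a 2.78-fold lower level (adjusted p = 1.81e-12). ID2 averaged 42.8 ± 0.958 CPM at 500 µg/mL and 84.1 ± 3.06 CPM at 20 µg/mL (SD, n = 3 each; adjusted p = 3.91e-12). For all 3 ID genes every library at 500 µg/mL lay below every library at 20 µg/mL, as was so for 9.41% of all genes tested.

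The inhibitors of the pathway moved the same way. SMAD7, an inhibitory SMAD that targets the activated receptor, averaged 4.02 ± 0.157 CPM at 500 µg/mL and 6.89 ± 0.696 CPM at 20 µg/mL (SD, n = 3 each; log2 difference -0.77, adjusted p = 9.63e-08). SMAD6, the other inhibitory SMAD, had a log2 difference of -0.52 (adjusted p = 0.0211), and BAMBI, a membrane pseudoreceptor that lacks the kinase domain, one of -0.33 (adjusted p = 0.0494). 2 members did not pass: TMPRSS6, the liver protease that restrains hepcidin, at -0.14, and SMAD9, a receptor-activated SMAD, at -0.05. Without replicate 2 at 20 µg/mL, 6 members were lower.

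The HAMP promoter, added after its values were seen, is printed because HAMP had the largest log2 difference of its list. It is shown over the 250 bases before the RefSeq start, with the 1 match to GGCGCC, a BMP response element, in capitals, its first base 105 bases before the start. The region is chr19:35282278-35282527 on the plus strand of GRCh38.p14, and the letters are RefSeq's.
HAMP: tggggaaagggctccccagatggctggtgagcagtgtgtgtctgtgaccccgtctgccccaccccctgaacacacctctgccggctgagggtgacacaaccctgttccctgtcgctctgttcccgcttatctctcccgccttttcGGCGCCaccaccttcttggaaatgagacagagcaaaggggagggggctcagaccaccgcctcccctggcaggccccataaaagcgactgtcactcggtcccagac
This motif, the same on both strands, was in 16.1% of the 27305 promoters of the table, in 25.2% of the 11114 that belong to tested genes and in 2 of the 8 list members that had a promoter there, HAMP and BAMBI. The windows of ID1 and ID3 held none, which says only that these letters are not in those 250 bases.

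Among 11 tested members of the metallothionein and zinc list, 8 were lower and 1 was higher at 500 µg/mL, with a median log2 difference of -1.04. The metallothionein genes of the list sit in a cluster on chromosome 16 and have near-identical copies, so the sharing of reads among them by the authors' quantification is uncertain. MT2A (56608199 to 56609497) had 247, 253 and 259 CPM at 500 µg/mL, against 475, 522 and 559.7 CPM at 20 µg/mL. Its level was 2.05-fold lower (log2 difference -1.04, SE 0.126, adjusted p = 7.47e-08), with no overlap between libraries. MT1G (56666731 to 56668065) had 45.5, 48.3 and 50.7 CPM at 500 µg/mL, against 123.1, 134 and 142 CPM at 20 µg/mL, a 2.76-fold lower level (adjusted p = 7.36e-12).

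The remaining isoforms moved alike. MT1E averaged 139.6 ± 3.72 CPM at 500 µg/mL and 296 ± 13.6 CPM at 20 µg/mL, and MT1F averaged 19.7 ± 1.77 CPM at 500 µg/mL and 45.1 ± 5.10 CPM at 20 µg/mL (SD, n = 3 each; adjusted p = 4.60e-09 for MT1E and 3.64e-12 for MT1F). MT1X had 21.4, 22.6 and 19.8 CPM at 500 µg/mL, against 44.0, 48.8 and 42.0 CPM at 20 µg/mL (adjusted p = 7.36e-12). The scarce MT1M and MT1A were lower as well, by log2 differences of -2.37 (adjusted p = 2.17e-06) and -0.82 (adjusted p = 0.00504). SLC30A1, the plasma membrane zinc exporter, was lower by less, at 80.8 ± 1.06 CPM at 500 µg/mL and 95.5 ± 2.94 CPM at 20 µg/mL (SD, n = 3 each; log2 difference -0.24, adjusted p = 1.62e-05). The zinc importer SLC39A10 was the member that rose, to 14.9 ± 1.10 CPM at 500 µg/mL against 11.4 ± 0.620 CPM at 20 µg/mL (SD, n = 3 each; adjusted p = 0.00585), and this call did not hold without replicate 2 at 20 µg/mL, where 8 members were lower and 0 higher. MTF1 itself had a log2 difference of 0.02 and SLC30A10 one of 0.13, neither past the threshold. Vehicle means of MT2A, MT1G and MT1E were 428, 111 and 248 CPM, below the 519, 133 and 296 CPM at 20 µg/mL. MT1X and MT1F averaged 43.3 and 45.6 CPM with vehicle and 44.9 and 45.1 CPM at 20 µg/mL.

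At 100 µg/mL the metallothioneins had barely moved: the means of MT2A, MT1G, MT1E, MT1F and MT1X had covered 8.56% to 11.9% of the log2 distance between 20 and 500 µg/mL. The ID genes and SMAD7 had covered 24.7% to 26.9% of theirs at that dose, and HAMP 42.5%. The promoters of MT1X and MT2A are shown because these genes had the smallest p among the list members with a RefSeq promoter. Matches to TGCNCNC, the core of the metal response element that MTF1 binds, were searched on both strands and are drawn in capitals. The regions are the 250 bases before the RefSeq start on GRCh38.p14, plus strand, at chr16:56682220-56682469 for MT1X and chr16:56608334-56608583 for MT2A.
MT1X: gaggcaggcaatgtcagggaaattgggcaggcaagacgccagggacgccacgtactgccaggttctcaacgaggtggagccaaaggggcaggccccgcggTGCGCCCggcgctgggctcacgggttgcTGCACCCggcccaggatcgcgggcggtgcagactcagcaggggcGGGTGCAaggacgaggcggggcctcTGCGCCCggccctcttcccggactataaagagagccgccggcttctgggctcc
MT2A: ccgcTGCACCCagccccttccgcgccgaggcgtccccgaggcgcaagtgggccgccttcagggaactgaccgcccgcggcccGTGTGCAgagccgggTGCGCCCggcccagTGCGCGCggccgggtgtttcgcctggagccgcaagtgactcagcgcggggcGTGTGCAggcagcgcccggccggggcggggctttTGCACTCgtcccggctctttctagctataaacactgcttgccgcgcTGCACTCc
MT1X held 4 matches and MT2A 7. The motif is short and common: 48.4% of the 27305 promoters and 56.0% of those of tested genes held at least 1, as did 3 of the 6 list members with a promoter in the table.

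**Figure D2:**
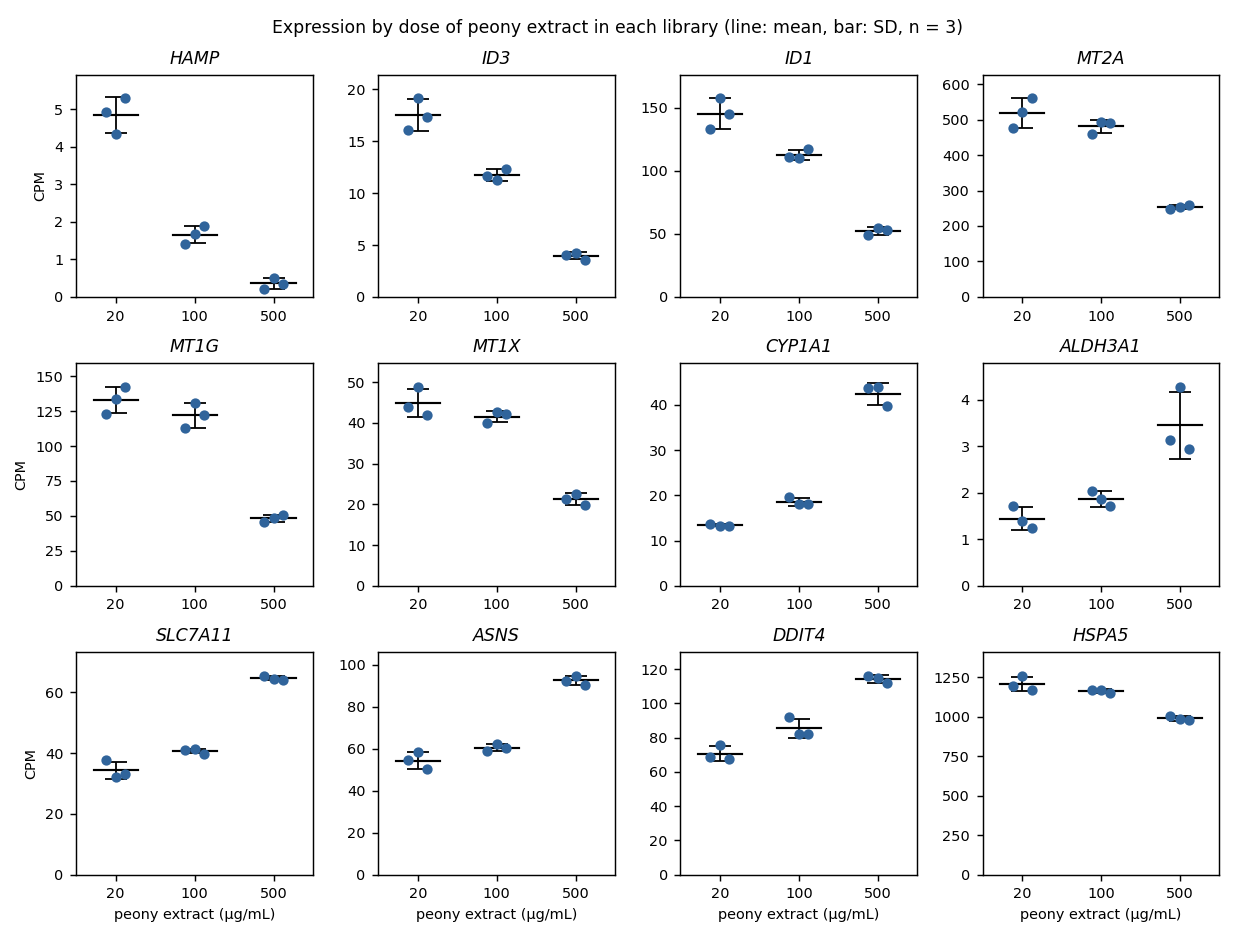
Level of 12 genes in CPM (linear axes from 0) in each library treated with 20, 100 or 500 µg/mL of peony extract; points are libraries, lines are means and bars are SD over 3 libraries. HAMP, ID3, ID1 and the metallothioneins are lowest at 500 µg/mL and CYP1A1, ALDH3A1, SLC7A11, ASNS and DDIT4 are highest there, with no library of the 500 and 20 µg/mL groups overlapping in any panel.

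Most ATF4 targets tested rose. Of 24 tested members, 15 were higher at 500 µg/mL and 0 lower, with a median log2 difference of 0.26, and the count was again 15 without replicate 2 at 20 µg/mL. ATF4 mRNA, which is not itself a member, had 617, 608 and 609 CPM at 500 µg/mL, against 497, 518 and 497 CPM at 20 µg/mL (log2 difference 0.28, SE 0.0430, adjusted p = 1.44e-05). SLC7A11, the cystine importer, changed most, with 65.4, 64.5 and 64.2 CPM at 500 µg/mL against 37.6, 32.2 and 33.0 CPM at 20 µg/mL. It was 1.88-fold higher (log2 difference 0.91, SE 0.0761, adjusted p = 1.33e-12). ASNS, asparagine synthetase (chromosome 7, 97852118 to 97872542), had 92.4, 94.6 and 90.3 CPM at 500 µg/mL, against 54.3, 58.1 and 50.4 CPM at 20 µg/mL. Its 1.70-fold higher level had the smallest p of the list (log2 difference 0.77, SE 0.0449, adjusted p = 2.60e-18).

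The members that rose covered several steps of amino acid and one-carbon metabolism. MTHFD2 and ALDH1L2, enzymes of mitochondrial folate metabolism, had log2 differences of 0.40 (adjusted p = 1.94e-09) and 0.74 (adjusted p = 2.69e-05). The serine synthesis enzymes PHGDH and PSAT1 had 0.27 (adjusted p = 4.12e-05) and 0.24 (adjusted p = 0.000605), and CTH, which makes cysteine from cystathionine, had 0.43 (adjusted p = 0.00296). Among stress regulators, NUPR1 averaged 31.1 ± 0.438 CPM at 500 µg/mL and 19.6 ± 2.73 CPM at 20 µg/mL (SD, n = 3 each; adjusted p = 4.66e-07). DDIT4, an inhibitor of mTORC1 signalling, had 116, 115 and 112 CPM at 500 µg/mL against 68.7, 75.6 and 67.3 CPM at 20 µg/mL (1.62-fold higher, adjusted p = 0.000682). SESN2, another mTORC1 inhibitor, had a log2 difference of 0.26 (adjusted p = 0.00867), a call that was lost without replicate 2 at 20 µg/mL or replicate 3 at 500 µg/mL. The pro-apoptotic regulator DDIT3 (CHOP) had -0.07 and the pseudokinase TRIB3 had 0.17 (adjusted p = 0.0605), so neither passed.

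Genes in none of the lists were also among the 12 largest rises, such as SLC6A9, a glycine transporter, the secreted factor INHBE and the peptide hormone gene ADM2. SLC6A9 averaged 26.5 ± 1.64 CPM at 500 µg/mL and 18.02 ± 1.52 CPM at 20 µg/mL, INHBE 23.2 ± 0.702 CPM at 500 µg/mL and 16.1 ± 0.699 CPM at 20 µg/mL, and ADM2 12.6 ± 0.572 CPM at 500 µg/mL and 8.30 ± 0.291 CPM at 20 µg/mL (SD, n = 3 each; adjusted p = 1.73e-08, 7.27e-07 and 1.65e-07 in that order). Aminoacyl-tRNA synthetases, which charge tRNAs, had 5 of 20 members higher and 0 lower, and 3 higher by regression on log dose or without the filter on low counts. The largest differences were in CARS1 (log2 difference 0.33, adjusted p = 5.81e-05), GARS1 (0.25, adjusted p = 1.50e-05) and MARS1 (0.22, adjusted p = 0.000103).

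The ASNS promoter is printed because ASNS rose with the smallest p in the list. The window is the 250 bases before the RefSeq start on GRCh38.p14, chr7:97872409-97872658, minus strand. Capitals mark TGATGNAA, a shortened amino acid response element, whose first base lies 68 bases before the start.
ASNS: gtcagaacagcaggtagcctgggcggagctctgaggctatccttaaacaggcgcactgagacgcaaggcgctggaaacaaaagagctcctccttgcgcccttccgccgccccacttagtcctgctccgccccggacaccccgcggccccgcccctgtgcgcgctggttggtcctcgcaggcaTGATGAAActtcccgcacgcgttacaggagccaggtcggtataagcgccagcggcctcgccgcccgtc
The longer form TGATGNAAT, searched first, was in 0 of the 19 list members with a promoter and in 0.916% of all promoters (0.441% of those of tested genes). The shorter form was chosen after that search and was in 2 of 19, ASNS and ATF3, and in 3.19% of all promoters (1.47% of those of tested genes), both strands counted.

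Of 20 tested heat shock and cytosolic chaperone genes, 14 were lower at 500 µg/mL and 0 higher, and all 20 had a negative log2 difference, with a median of -0.23. FKBP4, a co-chaperone of HSP90, had 94.6, 89.7 and 90.8 CPM at 500 µg/mL, against 111, 115 and 110.5 CPM at 20 µg/mL (log2 difference -0.29, SE 0.0361, adjusted p = 1.01e-07). HSP90AB1, the constitutive HSP90, had 2369.6, 2345 and 2289.9 CPM at 500 µg/mL, against 2590.1, 2748 and 2631 CPM at 20 µg/mL (log2 difference -0.19, adjusted p = 1.44e-05). CHORDC1, another HSP90 partner, and DNAJA1, an HSP40, had log2 differences of -0.34 (adjusted p = 2.86e-05) and -0.29 (adjusted p = 5.49e-05). The inducible HSP70 genes HSPA1A and HSPA1B, which are nearly identical so that their separate values are uncertain, had -0.44 (adjusted p = 0.0101) and -0.36 (adjusted p = 0.00504). Without replicate 2 at 20 µg/mL, 10 of the 20 were lower. Vehicle means did not extend the dose order for every gene. DNAJA1 averaged 263 CPM both with vehicle and at 500 µg/mL, against 321 CPM at 20 µg/mL. CHORDC1 averaged 52.0 CPM with vehicle, 54.3 CPM at 500 µg/mL and 68.7 CPM at 20 µg/mL, while HSP90AB1 averaged 2695, 2335 and 2657 CPM in that order.

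In the list of endoplasmic reticulum (ER) chaperones and unfolded protein response genes, 9 of 22 members were lower and 0 higher, with a median of -0.14. HSPA5, the ER HSP70 known as BiP, had 1004, 987 and 977 CPM at 500 µg/mL, against 1197, 1259 and 1169 CPM at 20 µg/mL (log2 difference -0.29, SE 0.0361, adjusted p = 1.49e-07). The calcium-binding chaperone CALR averaged 1115 ± 25.2 CPM at 500 µg/mL and 1336 ± 57.3 CPM at 20 µg/mL (SD, n = 3 each; adjusted p = 1.59e-06). HYOU1, an exchange factor for BiP, and the secreted ER protein MANF had log2 differences of -0.23 (adjusted p = 7.77e-06) and -0.36 (adjusted p = 2.86e-05). The XBP1 and HERPUD1 genes, both used to read the unfolded protein response, had log2 differences of -0.03 and -0.00 and did not pass. Without replicate 2 at 20 µg/mL, 6 of the 22 were lower, as without replicate 1 at 500 µg/mL. Vehicle means of HSPA5, CALR and MANF were 1081, 1254 and 90.5 CPM, below the 1208, 1336 and 115.4 CPM at 20 µg/mL. MANF averaged 89.7 CPM at 500 µg/mL, near its vehicle mean. HYOU1 averaged 288.5 CPM with vehicle and 289.7 CPM at 20 µg/mL.

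**Figure D3:**
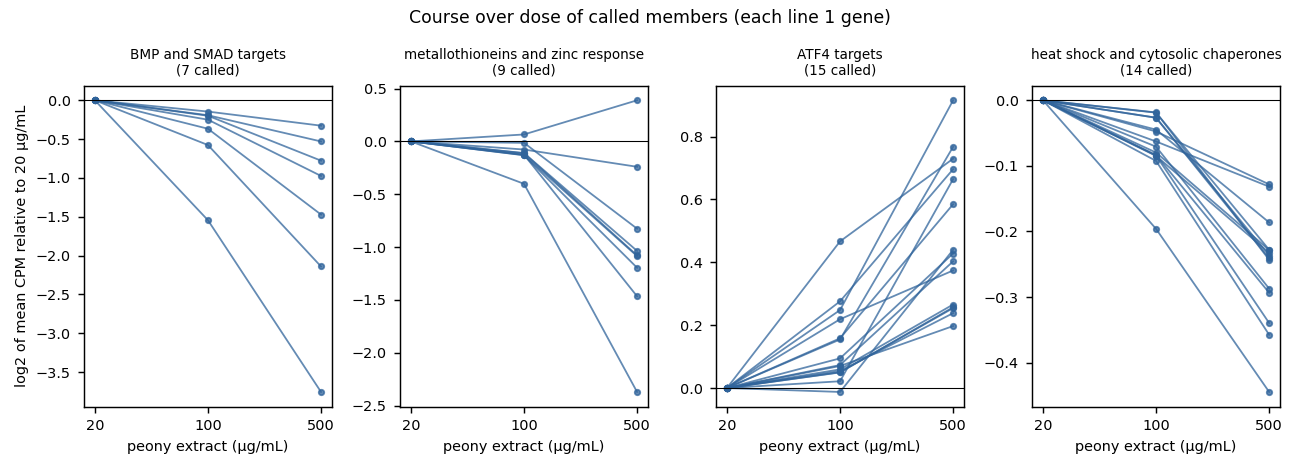
Course over dose of the members that passed the test in 4 gene lists, as log2 of the mean CPM at 20, 100 and 500 µg/mL of peony extract relative to 20 µg/mL, each line 1 gene and each panel on its own axis. The BMP targets separate from 0 at 100 µg/mL, while most metallothioneins move mainly between 100 and 500 µg/mL.

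Aryl hydrocarbon receptor and other xenobiotic genes were mixed. CYP1A1, the textbook target of the receptor (chromosome 15, 74719542 to 74725610), had 43.7, 43.9 and 39.7 CPM at 500 µg/mL, against 13.7, 13.3 and 13.2 CPM at 20 µg/mL. It was 3.16-fold higher (log2 difference 1.66, SE 0.0795, adjusted p = 6.61e-22), the largest rise among genes with at least 5 CPM in either group, and stood at 18.5 ± 0.911 CPM with 100 µg/mL and 12.7 ± 1.14 CPM with vehicle (SD, n = 3 each). ALDH3A1, an aldehyde dehydrogenase, had 3.14, 4.27 and 2.94 CPM at 500 µg/mL, against 1.71, 1.39 and 1.23 CPM at 20 µg/mL (2.36-fold higher, adjusted p = 7.27e-07). Of the 10 tested members of this list, 3 were higher and 1 lower, NFE2L2, which encodes NRF2 (log2 difference -0.27, adjusted p = 1.82e-06). TIPARP, another target of the receptor, had 0.01 and did not pass. Among 10 PXR and CAR targets, UGT1A1, which conjugates bilirubin, was higher (0.36, adjusted p = 0.000349), as was ALAS1 (0.19, adjusted p = 0.00484). The sulfotransferase gene SULT2A1 was lower (-0.37, adjusted p = 4.27e-08), as was GSTA1 (-0.35, adjusted p = 0.00192), and CYP3A4 averaged 0.327 CPM at 500 µg/mL and 0.283 CPM at 20 µg/mL and did not pass.

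A part of the NRF2 targets, which serve glutathione and redox metabolism, rose. Of 29 members, 8 were higher (27.6%, against 1.78% of all genes tested) and 0 lower, with a median log2 difference of 0.07. AKR1B10 was at 62.2 ± 1.79 CPM at 500 µg/mL and 47.5 ± 2.16 CPM at 20 µg/mL (SD, n = 3 each; adjusted p = 9.60e-06). NQO1 had a log2 difference of 0.27 (adjusted p = 4.95e-05), GCLM 0.29 (adjusted p = 0.000193) and HMOX1 0.30 (adjusted p = 7.84e-05). SRXN1 and SQSTM1, which are often used as NRF2 reporters, had 0.03 and -0.05 and did not pass. SLC7A11 belongs to this list as well as to the ATF4 list.

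In the cholesterol list, 8 of 25 members were lower and 0 higher, with a median of -0.13, and 6 were lower without replicate 2 at 20 µg/mL. FDPS, farnesyl diphosphate synthase, averaged 245 ± 8.72 CPM at 500 µg/mL and 307 ± 31.8 CPM at 20 µg/mL, where replicate 2 alone had 343 CPM (SD, n = 3 each; log2 difference -0.33, adjusted p = 1.11e-05). HMGCS1 averaged 517 ± 7.10 CPM at 500 µg/mL and 609 ± 7.81 CPM at 20 µg/mL (SD, n = 3 each; adjusted p = 1.59e-06). Fatty acid and triglyceride synthesis had 5 of 20 members lower, led by ACSS2 (-0.26, adjusted p = 1.30e-05) and FADS2 (-0.23, adjusted p = 3.19e-05). That count was 2 when the 9 peony libraries were fitted alone or regressed on log dose, and 3 without replicate 1 or 3 at 500 µg/mL or replicate 3 at 20 µg/mL.

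S phase genes were lower in 8 of 33 cases and higher in 0, with a median of -0.07. MCM3, a subunit of the replicative helicase, had 205, 206 and 203 CPM at 500 µg/mL, against 241, 252 and 245 CPM at 20 µg/mL (log2 difference -0.27, SE 0.0301, adjusted p = 1.15e-08). The count of lower members was 3 without replicate 2 at 20 µg/mL, 4 without any 1 of the libraries at 500 µg/mL, 5 without replicate 3 at 20 µg/mL and 2 by regression on log dose, and without the filter on low counts it was 3. Mitosis genes had 1 of 32 lower (3.1%, against 1.7% of all genes tested), CCNB1 (-0.19, adjusted p = 0.0294), whose libraries overlapped. That call was lost without replicate 1 or 3 at 500 µg/mL or replicate 2 at 20 µg/mL (adjusted p = 0.130, 0.192 and 0.311), with the 9 peony libraries alone and by regression on log dose. CCND1, cyclin D1, was lower at 174 ± 3.41 CPM at 500 µg/mL against 213 ± 8.38 CPM at 20 µg/mL (SD, n = 3 each; adjusted p = 1.62e-05). It is a member of the Wnt list, where 4 of 13 were lower and 1 higher, and where the Wnt antagonist DKK1 had -0.41 (adjusted p = 0.000178). No Wnt member was higher without replicate 2 at 20 µg/mL or any 1 of the libraries at 500 µg/mL, with the 9 peony libraries alone or by regression on log dose.

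Glycolysis and hypoxia genes had 6 of 32 members higher and 0 lower, among them GPI (0.24, adjusted p = 4.06e-06), ALDOA (0.19, adjusted p = 0.000321) and VEGFA (0.23, adjusted p = 0.00332). The count was 4 without replicate 2 at 20 µg/mL and 3 without replicate 1 at 20 µg/mL or any 1 of the libraries at 500 µg/mL, and VEGFA did not pass without replicate 2 at 20 µg/mL (adjusted p = 0.0599). Of 25 p53 targets, 4 were higher and 0 lower, and 1 was higher without replicate 3 at 500 µg/mL. The call of CDKN1A (0.16, adjusted p = 0.0494) was lost with the replicate number as a block (adjusted p = 0.0521) and without any 1 of the 9 peony libraries. Hepatocyte genes passed in 2 of 24 cases (8.33%, against 3.49% of all genes tested). These were TTR (-0.34, adjusted p = 0.000337) and CEBPA (-0.30, adjusted p = 0.00351), and ALB did not pass (-0.12, adjusted p = 0.266). Iron and heme genes had 3 of 17 members higher, HMOX1, ALAS1 and FECH, while the transferrin receptor TFRC did not pass (0.14).

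Several genes outside the groups above passed as well. SGK1, a kinase induced by glucocorticoids, had 20.6, 22.5 and 19.8 CPM at 500 µg/mL, against 30.5, 31.3 and 32.4 CPM at 20 µg/mL (1.495-fold lower, adjusted p = 1.19e-07). CYP24A1, which inactivates vitamin D, averaged 7.595 ± 0.186 CPM at 500 µg/mL and 11.9 ± 0.390 CPM at 20 µg/mL (SD, n = 3 each; adjusted p = 4.82e-07). ANKRD1, a YAP target, averaged 8.30 ± 0.771 CPM at 500 µg/mL and 13.4 ± 1.03 CPM at 20 µg/mL (SD, n = 3 each; adjusted p = 1.62e-05). All 12 of the largest rises and all 12 of the largest falls had no overlap by the rule that chose them, against 9.6% of all genes tested higher and 9.41% lower without overlap. MYO10, an unconventional myosin of filopodia, averaged 48.8 ± 1.81 CPM at 500 µg/mL and 34.5 ± 1.62 CPM at 20 µg/mL (SD, n = 3 each; adjusted p = 1.52e-10).

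Among genes named whatever their value, those that did not pass included IGFBP1, at 370.3 ± 11.5 CPM with 500 µg/mL and 371 ± 4.49 CPM with 20 µg/mL, EGR1, G6PC1 and CYP7A1, which catalyses the first step from cholesterol to bile acids. CYP7A1 averaged 4.81 ± 0.920 CPM at 500 µg/mL and 4.66 ± 0.452 CPM at 20 µg/mL (SD, n = 3 each for both genes). No member passed the test in the lists of LXR targets, PPAR alpha targets, interferon-stimulated genes, 32 cytosolic ribosomal protein genes, 13 mitochondrially encoded genes or matrix and stellate cell markers.

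The dose order held for most genes that passed. For 505 of the 561 genes (90.0%) the mean log2 CPM at 100 µg/mL lay between those at 20 and 500 µg/mL, which was so for 41.8% of all genes tested. The 561 were chosen for the distance between the outer doses, and no test was made of their order. At 100 µg/mL the median gene of the 561 had covered 35.7% of the log2 distance, and 405 genes (72.2%) lay closer to 20 than to 500 µg/mL. All 7 BMP targets, all 9 members of the metallothionein list and all 14 cytosolic chaperones that passed were ordered by dose, as were 14 of the 15 ATF4 targets. The order held less often in some other lists, for 5 of the 8 S phase genes and 3 of the 5 fatty acid and triglyceride synthesis genes that passed. Exceptions included CYP24A1, at 12.4 ± 0.804 CPM with 100 µg/mL, and GSTA1, at 37.4 ± 2.12 CPM, both above their level at 20 µg/mL.

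The dose difference in peony was compared with that in angelica in the same model, and 149 genes (0.926%) differed at an adjusted p under 0.05, 65 with a higher (0.404%) and 84 with a lower value (0.522%) in peony. Of the 561 peony genes, 373 (66.5%) had the same sign in angelica, where 54.3% of all genes tested did, and 108 differed between the extracts. Of 11 metallothionein list members 0 differed between the extracts, and of 9 BMP targets 1 did, which does not show that the extracts act alike. MT2A had a log2 difference of -1.04 in peony and -0.89 in angelica (adjusted p = 0.871 for the difference), and HAMP -3.77 in peony and -2.88 in angelica (adjusted p = 0.420). ID3 differed, at -2.14 in peony and -1.26 in angelica (adjusted p = 4.45e-05). The log2 difference of CYP1A1 was smaller in peony, 1.66 in peony and 2.10 in angelica (adjusted p = 0.0292).

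Of the 24 ATF4 targets, 15 had a higher dose difference in peony than in angelica and 0 a lower one, with medians of 0.26 in peony and -0.07 in angelica. ASNS had 0.77 in peony and -0.13 in angelica (difference 0.89, SE 0.0648, adjusted p = 4.40e-14), the smallest p of all genes in this comparison. NUPR1 had 0.67 in peony and -0.30 in angelica, and ATF4 itself 0.28 in peony and -0.18 in angelica (adjusted p = 3.39e-06 for each difference). Among cytosolic chaperones 6 of 20 differed, all lower in peony, with medians of -0.23 in peony and -0.01 in angelica, and HSPA5 had -0.29 in peony and 0.05 in angelica (adjusted p = 4.45e-05). Of 33 S phase genes, 10 had a lower value in peony. Without replicate 2 of peony at 20 µg/mL, 91 genes differed between the extracts in all, without replicate 2 of angelica at 20 µg/mL 75, and without replicate 3 of peony at 500 µg/mL 66. Without replicate 1 or 3 of angelica at 500 µg/mL the count was 88 or 84, and without replicate 2 of peony at 500 µg/mL it was 94.

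**Figure D4:**
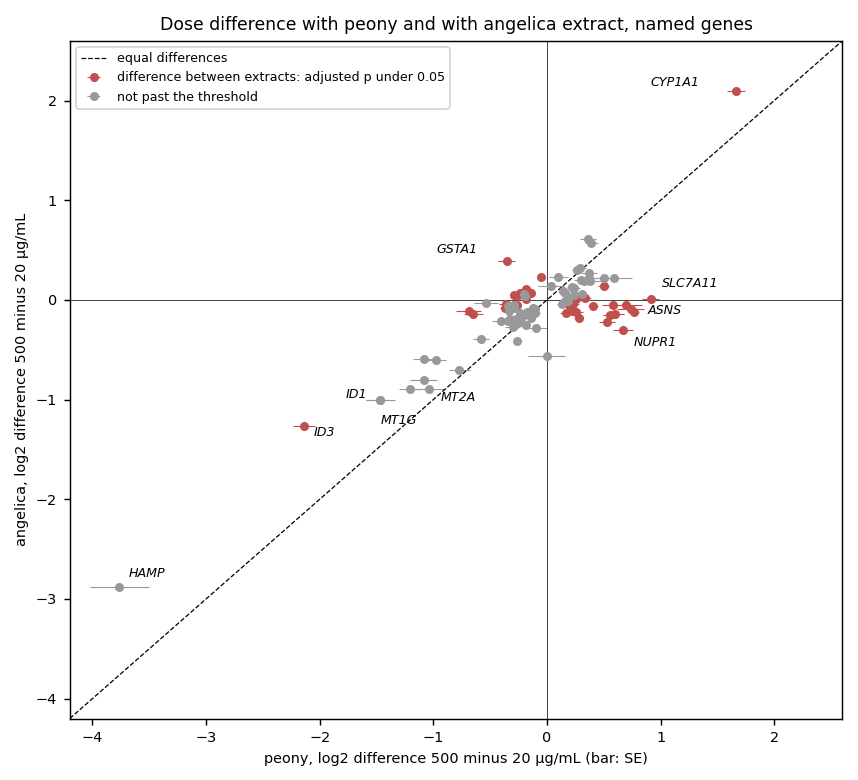
Log2 difference between 500 and 20 µg/mL with peony extract (x axis, bars are SE of the fit) and with angelica extract (y axis) for the 99 named genes; red points differ between the extracts at an adjusted p under 0.05 and the dashed line marks equal differences. ID3, HAMP and the metallothioneins lie low on both axes, while ASNS, SLC7A11 and NUPR1 are above 0.6 on the peony axis and near or below 0 on the angelica axis.

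Set against the mean of the other 5 extracts, the dose difference in peony differed for 1218 genes (7.57%), 572 higher (3.55%) and 646 lower (4.01%), and for 763 without replicate 2 of peony at 20 µg/mL. Of 9 BMP targets, 6 had a lower value in peony, and of 11 metallothionein list members 6 did. Heat shock genes were lower than in the other extracts in 14 of 20 cases and ER chaperones in 10 of 22. ATF4 targets were higher in 16 of 24 cases and lower in 1, GDF15. Of 29 NRF2 targets, 19 had a lower dose difference in peony than in the mean of the other extracts, and 1 a higher one. SQSTM1 had -0.05 in peony and 0.55 in the mean of the others (adjusted p = 2.21e-15), and AKR1B10 0.39 in peony and 1.17 in the others (adjusted p = 1.21e-12).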

How the data were processed

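RNA of 60 HepG2 libraries was sequenced as 100 bp paired ends with a directional kit, per the labels' protocols. The values analysed are expected counts per gene, deposited by the authors as 1 table. FastQC 0.11.9, Trim Galore 0.6.5, STAR 2.7.3a and RSEM 1.3.3 and the build hg38 are named in the submitters' processing notes; the annotation release is not given in the sources used here. Of 270 value columns, the 60 that match these samples were used and 210 were not. Of the nonzero values, 76.1% were whole numbers, and expected counts were rounded before testing. Of 60675 genes, 57055 had a name, and unnamed genes held 0.0396% of the counts. Library totals were 20.9 M to 33.4 M.

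edgeR 4.0.16 in R 4.3.3 fitted 1 mean per group over all 60 libraries (filterByExpr with a minimum count of 10, 16093 genes, TMM factors 0.926 to 1.03, 40 residual degrees of freedom), and quasi-likelihood F tests were adjusted by Benjamini-Hochberg over all genes. Fold changes are on a log2 scale with a prior count of 0.125, and CPM are TMM-scaled. DESeq2 1.42.0, other filters, other sets of samples, a regression on log dose, a replicate block and leaving out each library were alternatives. The fit was tested on simulated counts. Deviations from the group mean of same-numbered libraries at 500 and 20 µg/mL correlated at 0.208, 0.242 and 0.114 over 10597 genes. Those of differently numbered libraries correlated at -0.202 to 0.0636. Deviations within a group are not independent of each other, so these values do not settle whether the replicate numbers pair the samples. The main fit had no replicate term.

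The comparison, the 36 gene lists and the named genes were chosen with earlier results of these data known. Named were the 12 largest rises and 12 largest falls with at least 5 CPM in 1 group and no overlap, up to 4 members of each list by smallest p, a fixed set of 18 genes whatever their value, and the 6 genes of smallest p in each comparison with other extracts. Further list members were named after their values were seen. Promoters, from RefSeq, were cut to the 250 bases before the start, and 73 of the 99 named genes had one. The rule for promoters took MT1X, MT2A, ASNS, ID1, ID3 and HSP90AB1. The windows of ID1, ID3 and HSP90AB1 held no match to the motif of their list and are not printed, whereas HAMP was added outside the rule.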

Additional observations from a re-analysis of the deposited data

Results flagged for a closer look

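The dose difference between 500 and 20 µg/mL differed between peony and angelica for 38 of the 99 named genes, by the difference tested in the fit of all libraries (edgeR, adjusted p under 0.05 over all genes tested). Values are the log2 difference in peony minus that in angelica, so a positive value means a more positive difference in peony. Among genes of the ATF4 response, amino acid transport and tRNA charging they were NUPR1 0.97, SLC7A11 0.91, ASNS 0.89, ALDH1L2 0.83, INHBE 0.75, DDIT4 0.75, ADM2 0.74, SLC6A9 0.71, VLDLR 0.64, MTHFD2 0.47, ATF4 0.46, SESN2 0.38, CARS1 0.32, GARS1 0.25 and MARS1 0.24. Other genes with a positive value were MYO10 0.36, DDB2 0.33, CDKN1A 0.29, VEGFA 0.27, ALAS1 0.24 and ALDOA 0.19. Genes with a negative value were ID3 -0.87, GSTA1 -0.74, ANKRD1 -0.58, CYP24A1 -0.51, CYP1A1 -0.44, HSPA5 -0.34, MANF -0.32, CALR -0.30, HYOU1 -0.30, SULT2A1 -0.29, UHRF1 -0.29, SQSTM1 -0.28, CDC6 -0.25, FKBP4 -0.24, MCM3 -0.22, MCM2 -0.21 and HSP90AB1 -0.20. The library codes of both extracts begin with the same number, and the cause of these differences was not tested. Of the 38 calls, 30 held with the 18 angelica and peony libraries alone and 29 without the filter on low counts. Over all runs with 1 library left out, a call was kept 344 times and lost 112 times.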

How the results depend on the processing

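No named gene that passed a test reversed its direction under any alternative run. Direction was followed for the named genes only. Between 500 and 20 µg/mL of peony extract the count of 561 genes was 350 by regression on log dose (179 higher, 171 lower) and 377 with the 9 peony libraries alone (191 higher); leaving out 1 peony library gave 319 to 545 genes, 169 to 278 higher and 149 to 267 lower. The replicate block over 60 libraries gave 611 genes (302 higher, 309 lower), 557 of them shared, and among named genes it changed the call of CDKN1A alone. Without a filter on low counts 627 genes passed, of which 378 were shared. The difference from angelica (149 genes) was 230 without a filter (121 higher), 84 with the 18 angelica and peony libraries (39 higher, 45 lower), 140 lower genes by the DESeq2 Wald test, 164 with the replicate block, and 66 to 144 with 1 library left out (33 to 52 higher, 31 to 92 lower). The difference from the mean of the other extracts was 1303 genes with the replicate block and 763 to 1337 with 1 library left out (364 to 628 higher, 399 to 709 lower). The number of genes ordered by dose was 487 to 505 with 1 library left out. Of 91 named genes past the threshold, 67 kept their call in all 18 alternatives. The median log2 difference of genes with a longest transcript under 1 kb changed sign, from -0.084 with all libraries to 0.0037 without replicate 2 at 20 µg/mL. That of genes with one over 8 kb also did, from 0.026 to -0.019. This check and the shortened motif were chosen after seeing the data. Genes of a few counts, such as HAMP at 500 µg/mL, are limited by depth.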
